A study of Mus musculus with 2 samples.

Results

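The sirtuins are the 7 genes Sirt1 to Sirt7, and their transcripts were measured in liver of calorie-restricted and freely fed mice. The members were taken by name as every probe set of the value table whose only annotated gene symbol was one of these 7, which gave 9 probe sets for 7 of the 18193 genes named on the array. A probe set is a group of short oligonucleotides that together read one transcript. All mice were wild-type C57BL/6J males, housed individually, 8 weeks old at the start and labelled as 5 months old at collection, and no allele, transgene or drug was involved. The ad libitum (AL) group ate freely for 12 weeks, and the calorie-restricted (CR) group was restricted by 20% in week 1 and by 40% in the other 11 weeks. The livers of 3 mice per diet gave 1 pool of RNA in equal parts, and 1 Affymetrix array was hybridised per pool.

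Sirtuins remove acetyl and other acyl groups from lysines of proteins and use up NAD while they do so, with nicotinamide as a product, which ties them to the energy state of the cell. Sirt1, Sirt6 and Sirt7 act mainly in the nucleus, Sirt2 mainly in the cytosol, and Sirt3, Sirt4 and Sirt5 in mitochondria. In liver they are known for deacetylating regulators of gluconeogenesis, fat oxidation, urea synthesis and ketone production, and they have long been studied as candidates for mediating responses to food restriction. The comparison asks whether their transcripts differed between the diets.

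No sirtuin differed by 1.5-fold between the pools in the values as deposited. Sirt1 and Sirt3 had higher intensity in the CR pool, by 1.27-fold and 1.24-fold, and Sirt2, Sirt6 and Sirt7 had lower intensity, with Sirt7 the farthest from 0 at a log2 difference of -0.53. Sirt5 had one probe set close to 0 and one below it, and Sirt4 lay below the measured range in both pools. These directions are relative to the typical probe set, because scaling the arrays on their hybridisation control spikes lowered every value by 1.02 and put all 7 measured sirtuin probe sets below 0, all 7 of them then past 1.5-fold and 4 past 2-fold. The median of all measured probe sets then lay at -1.03, and 3 of the 7 sirtuin probe sets were still above it. Each diet was read from 1 array of pooled RNA, so there are no replicates, nothing was tested, variation from mouse to mouse is unknown, and every value compares these pools only.

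A few properties of the arrays bear on all values. The array held 45101 probe sets with a median intensity of 7.35 in AL and 7.42 in CR. A probe set counts as measured here if its higher value reached 7.38, the median of all values, and 23975 probe sets did. The number of arrays limits the precision. The 6 control probe sets for beta-actin and Gapdh were lower in CR, by log2 differences of -1.61 to -0.67, and their 3' to 5' signal ratios were 83.5 in AL and 89.7 in CR for beta-actin and 46.9 and 53.2 for Gapdh. The part of this strong 3' bias in the sirtuin values was not tested.

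The stretches in front of 4 sirtuin genes are shown first, because they differ in what lies there. Sirt1 has no other annotated gene in the 250 bases before its start. Sirt2 and Sirt3 each share a short gap with a gene running the other way, and Sirt7 starts just behind another gene. All come from RefSeq on build GRCm38.p6, are written 5′ to 3′ on the strand of the sirtuin and end at the base before its start, for Sirt3 the more upstream of its annotated starts. They cover chr10:63339036-63339285 on the minus strand for Sirt1, chr7:28766645-28766751 on the plus strand for Sirt2, chr7:140882310-140882393 on the minus strand for Sirt3 and chr11:120625015-120625116 on the minus strand for Sirt7. None of them overlaps an annotated gene. Capitals in the Sirt1 stretch mark matches to the E-box CACGTG, which clock and Myc-family factors can bind.
Sirt1: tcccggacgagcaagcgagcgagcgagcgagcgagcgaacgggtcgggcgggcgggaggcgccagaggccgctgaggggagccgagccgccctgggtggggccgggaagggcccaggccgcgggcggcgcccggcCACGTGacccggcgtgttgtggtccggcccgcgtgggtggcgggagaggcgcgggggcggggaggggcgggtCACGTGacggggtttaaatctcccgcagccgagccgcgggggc
Sirt2: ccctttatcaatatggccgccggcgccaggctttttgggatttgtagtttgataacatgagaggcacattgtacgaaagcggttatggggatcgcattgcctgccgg
Sirt3: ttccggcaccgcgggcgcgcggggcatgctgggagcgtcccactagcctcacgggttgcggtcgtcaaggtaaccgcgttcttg
Sirt7: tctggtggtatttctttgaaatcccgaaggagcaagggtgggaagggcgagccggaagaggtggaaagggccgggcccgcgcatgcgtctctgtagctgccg

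Sirt1 was the only sirtuin with an E-box in its promoter window, the 250 bases before and 50 after a start. It held 2, whose first bases lie 115 and 43 bases before the start. An E-box was found in 7.15% of the 32851 windows of the RefSeq table, and 2 or more in 0.594%. The Sirt1 window was also rich in G and C, at 79% against 50% for Sirt2, and stood at percentile 98.6 of all windows. It held 7 matches to the GC box GGGCGG, an element bound by Sp-family factors. A GC box occurred in 6 of the 9 windows of the sirtuins (Sirt3 and Sirt6 have 2 windows each) and in 35.7% of all windows. The CCAAT box occurred in 3 of 9, among them the Sirt2 and Sirt5 windows, against 37.4% of all. The forkhead element GTAAACA, the TATA box TATAAA and the cyclic AMP response element TGACGTCA were found in none of the 9, against 3.65%, 13.6% and 1.79% of all windows. Each motif was searched on both strands, these motifs do not contain one another, and a match or its absence in this window says nothing about binding.

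The nuclear sirtuins lay on both sides of 0. Sirt1, a deacetylase of the gluconeogenic coactivator Ppargc1a and of FoxO factors, read 35.6 in AL and 45.4 in CR on its 1 probe set (1418640_at). The CR value was 127% of the AL value, a log2 difference of 0.35. This difference was higher than that of 82.4% of all measured probe sets. Sirt6, a chromatin deacetylase that restrains glycolytic and lipid synthesis genes, read 51.6 in AL and 40.1 in CR (1429631_at). Its CR value was 77.8% of the AL value, a log2 difference of -0.36 at percentile 19.1.

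Sirt7, a nucleolar sirtuin linked to transcription of ribosomal RNA genes, had the lowest value of the family. Its probe set (1424238_at) read 43.4 in AL and 30.0 in CR, so that the CR pool had 69.1% of the AL intensity. The log2 difference of -0.53 lay at percentile 11.0 of all measured probe sets. Sirt1 and Sirt7 thus differed from each other by 0.88 in how far the CR pool departed from the AL pool, on the log2 scale.

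Sirt2, the mainly cytosolic member and a deacetylase of tubulin, was on the lower side. Its probe set (1423507_a_at) read 57.2 in AL and 45.8 in CR. The CR value was 80.0% of the AL value, a log2 difference of -0.32 at percentile 22.0.

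**Figure D1:**
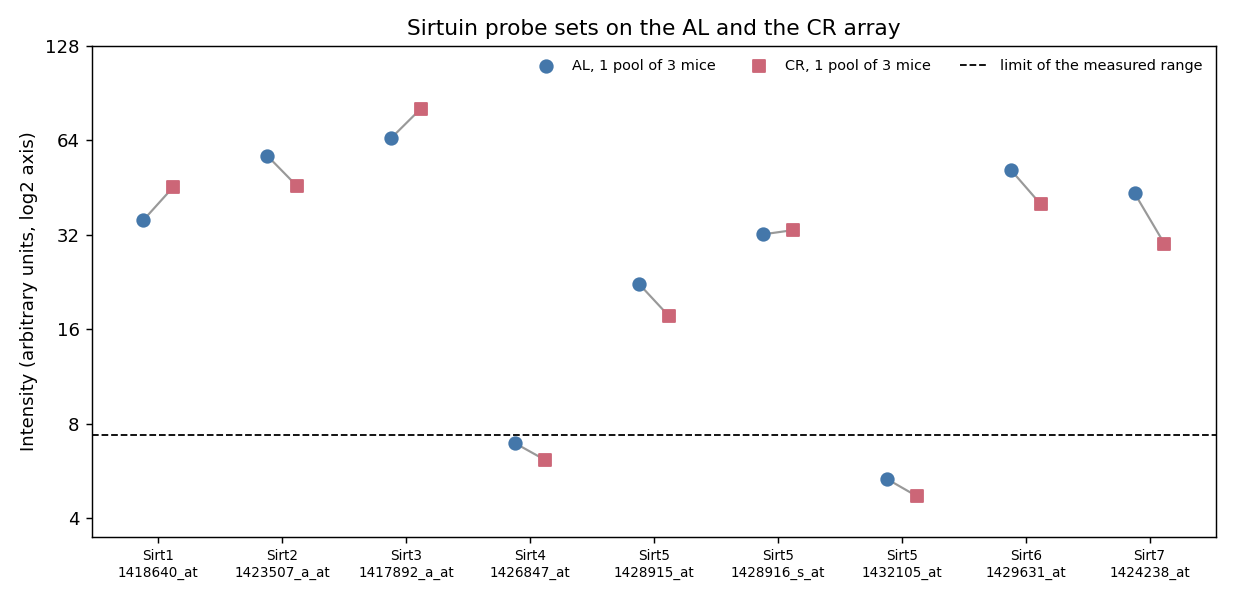
Intensity on a log2 axis of the 9 sirtuin probe sets in the AL pool (circles) and the CR pool (squares), 1 array each and without error bars because there is no replicate. The dashed line is the limit of the measured range, 7.38, and the Sirt4 probe set and 1 of the 3 Sirt5 probe sets lie below it in both pools. As deposited, Sirt1 and Sirt3 are higher in CR and Sirt2, Sirt6 and Sirt7 lower, all of them lower after scaling on the control spikes.

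Among the mitochondrial sirtuins, Sirt3 was higher in CR. Sirt3 is the main deacetylase of the mitochondrial matrix and acts on enzymes of fat oxidation and antioxidant defence. Its probe set (1417892_a_at) read 65.1 in AL and 80.8 in CR, so that the CR value was 124% of the AL value. The log2 difference was 0.31, at percentile 80.1 of all measured probe sets.

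Sirt4, a mitochondrial ADP-ribosyltransferase and lipoamidase that restrains glutamate dehydrogenase, gave no usable comparison. Its probe set (1426847_at) read 6.94 in AL and 6.15 in CR. Both values lay under the limit of 7.38 set here, the table has no detection calls, and no fold is given.

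Sirt5, which removes succinyl, malonyl and glutaryl groups and activates the urea cycle enzyme Cps1, was the only member with more than 1 probe set. One (1428916_s_at) read 32.1 in AL and 33.1 in CR, a log2 difference of 0.04. Another (1428915_at) read 22.3 in AL and 17.7 in CR, a log2 difference of -0.34. The remaining one (1432105_at) lay below the limit, at 5.34 and 4.71. The 2 measured Sirt5 probe sets were thus 0.38 apart on the same 2 arrays, with a mean of -0.15 ± 0.27 (SD over 2 probe sets, which share RNA and array and are not replicates).

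That gap is larger than the differences of Sirt1, Sirt2, Sirt3 and Sirt6 themselves. Over the 4924 genes with at least 2 measured probe sets, the median SD between probe sets of one gene was 0.288. The differences of Sirt1, Sirt2, Sirt3 and Sirt6, from -0.36 to 0.35, were each only slightly larger than this SD. Sirt1, Sirt2, Sirt3, Sirt4, Sirt6 and Sirt7 rest on 1 probe set each, so no such check exists for them. The probe sets of Sirt2 and Sirt3 have the suffix _a_at and that of Sirt5 with the value near 0 has _s_at, types that can read several transcripts.

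Counted over the family, 3 of the 7 measured sirtuin probe sets lay above 0 and 4 below. None of the 7 was 2-fold higher or lower, against 2.09% and 2.74% of all measured probe sets. None was 1.5-fold higher or lower either, where 7.57% and 9.43% of all measured probe sets were, so that a count of 0 among 7 is no result about the family. The median over the 7 was -0.32, and over all measured probe sets it was -0.01. At 1 value per gene, that of the brightest probe set, 3 of 6 sirtuins were above 0 and the median was -0.14, against -0.02 over the 12644 measured genes. The sirtuin median is a description of 7 values and moves with the way Sirt5 is counted.

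**Figure D2:**
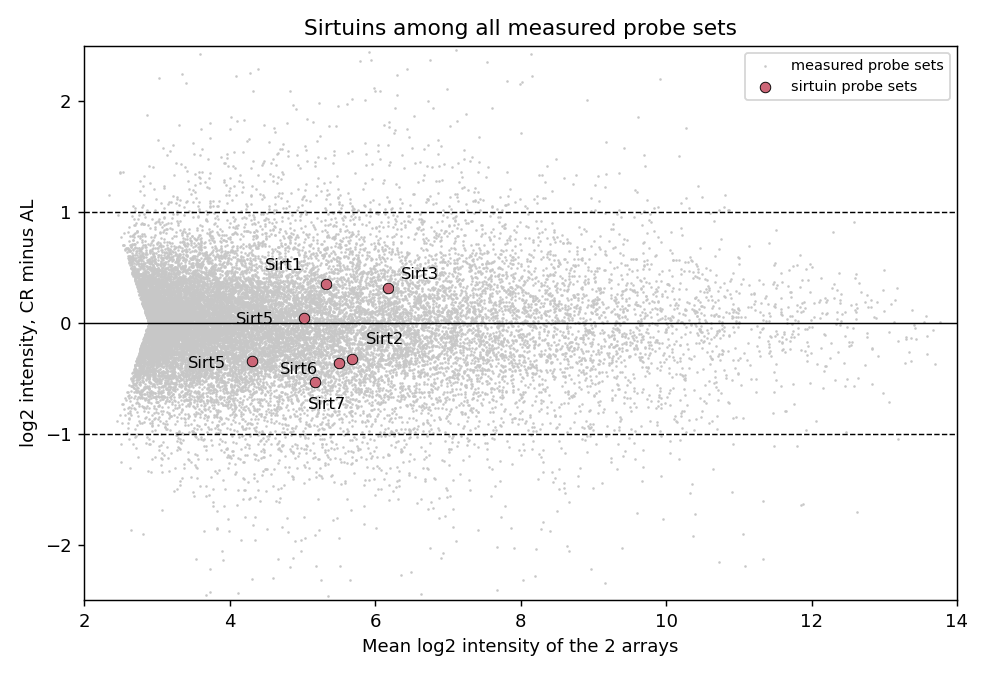
Log2 difference CR minus AL against the mean log2 intensity of the 2 arrays for all 23975 measured probe sets (grey), with the 7 measured sirtuin probe sets in red. Dashed lines mark 2-fold, and 73 grey points lie beyond the vertical axis. As deposited, the sirtuins run from -0.53 (Sirt7) to 0.35 (Sirt1), inside the bulk of the cloud and well within the dashed lines; scaling on the control spikes would shift all points down by 1.02.

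The spread of such differences depends on brightness, so each sirtuin was also placed among the 2000 measured probe sets nearest to it in mean intensity. The central 95% of these began between -1.21 and -1.10 and ended between 0.91 and 1.14, and none of the 7 sirtuin probe sets left it. Sirt7 stood farthest out, and 24.3% of the probe sets of its brightness had a larger absolute difference. For Sirt1 this share was 44.0%, for Sirt6 43.5%, for Sirt3 49.4% and for Sirt2 50.1%. For the Sirt5 probe sets the shares were 37.5% (1428915_at) and 92.0% (1428916_s_at). The Sirt1, Sirt2, Sirt3 and Sirt6 differences were thus of a size that more than 40% of probe sets of like brightness exceeded.

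**Figure D3:**
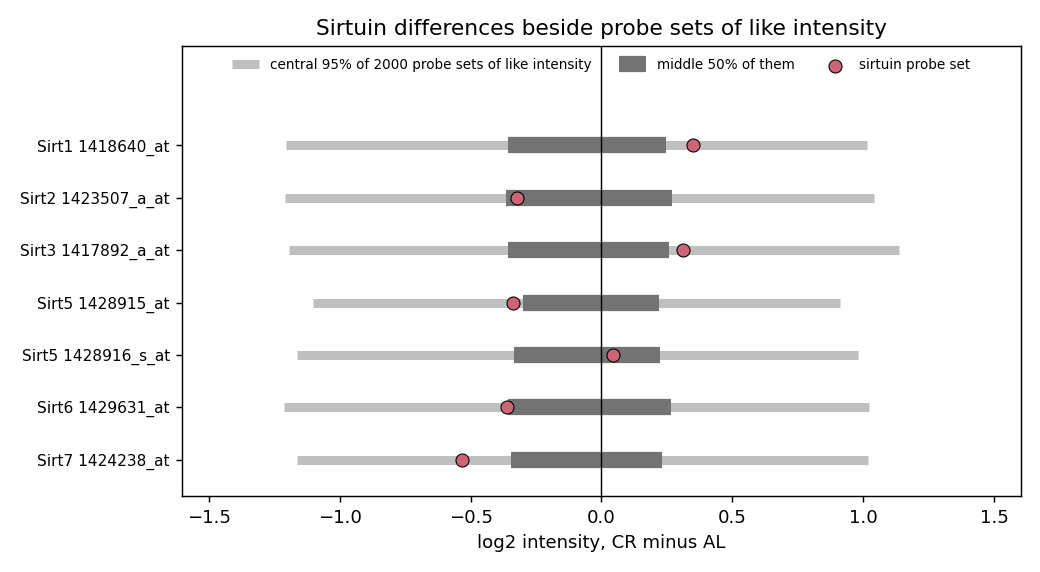
Log2 difference CR minus AL, as deposited, of each measured sirtuin probe set (red point) beside the 2000 probe sets nearest in mean intensity, whose central 95% (light bar) and middle 50% (dark bar) are shown. All 7 points lie within the light bars and 5 of 7 outside the dark bars, with Sirt7 at -0.53 the farthest from its dark bar; scaling on the control spikes shifts points and bars alike.

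The genes next to the sirtuins were looked at after their values were seen. Sirt3 and the proteasome subunit gene Psmd13 run in opposite directions. Between Psmd13 and the nearer of the annotated Sirt3 starts lie 84 bases, the stretch printed for Sirt3. Sirt3 had a log2 difference of 0.31, and the brightest Psmd13 probe set, with 230 in AL and 285 in CR, one of 0.31 too. The other 3 measured Psmd13 probe sets were at 0.06, 0.11 and 0.50. The one at 0.50 lay below the measured range in AL, at 7.05, and read 9.96 in CR. The one at 0.06 was dim too, with 8.52 in AL and 8.87 in CR. Sirt2 and Nfkbib, an inhibitor of NF-kB, run in opposite directions with 107 bases between their starts, and their values were -0.32 and -0.28, the latter from a dim probe set with 9.59 in AL and 7.87 in CR.

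Other neighbours had the opposite sign to their sirtuin. Mafg, a small Maf transcription factor gene, lies before Sirt7 on the same strand with 102 bases between its end and the start of Sirt7, and its 2 probe sets stood at 0.65 and 0.77, with 79.8 in AL and 136 in CR on the brighter, against -0.53 for Sirt7. Ankrd24, an ankyrin repeat gene that runs away from Sirt6 on the opposite strand, stood at 0.39 and 0.53 on its measured probe sets against -0.36 for Sirt6. None of these neighbours reached 2-fold, and 4 pairs are too few to say how sirtuins and their neighbours relate.

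The genes that work with the sirtuins were followed in 7 lists with 77 genes on the array, 71 of them measured. Past 2-fold were 2 genes with higher and 1 with lower intensity in CR; of all measured genes, 1.80% and 2.79% were. Nampt, the rate-limiting enzyme that turns nicotinamide released by sirtuins back toward NAD, read 47.3 in AL and 159 in CR, a log2 difference of 1.75, and its other measured probe set stood at 1.23. Tdo2, the first enzyme of the route from tryptophan to NAD, stood at -1.23 on its brightest probe set, with others at 0.00 and -0.38. Of 15 measured genes of NAD supply, 5 lay above 0 and 10 below, with a median of -0.17 against -0.02 over all measured genes. Kynu, the kynureninase of the tryptophan route, stood at -0.88. Nadk2 stood at -0.02 on the probe set brightest on average and at -1.69 on another, with 90.9 in AL and 28.2 in CR. Its other measured probe sets stood at -0.05 and 0.48, and the latter lay below the measured range in AL, at 5.46, and read 7.63 in CR. Among 8 genes that use NAD or nicotinamide beside the sirtuins, none reached 2-fold. The farthest on the brightest probe set of each gene were the poly(ADP-ribose) polymerase family gene Parp4 at 0.62, the nicotinamide methyltransferase Nnmt at 0.57 and Parp1 at -0.34. The Parp4 probe set was dim, with 7.92 in AL and 12.2 in CR. Another measured Parp1 probe set stood at 0.03, and Parp3, at 0.08 on its brightest probe set, had others at -0.82 and -0.76.

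Proteins that bind or are acted on by sirtuins had transcripts mostly within 2-fold. All 7 genes that regulate Sirt1 were, with the Sirt1 repressor Hic1 at 0.49, the Sirt1 inhibitor Ccar2 at -0.24 and the Sirt1 activator Rps19bp1 at 0.15. Of 15 substrates of Sirt1 and other sirtuins in nucleus and cytosol, 1 was at least 2-fold higher on its brightest probe set, the gluconeogenic factor Foxo1 at 1.31, with its lowest measured probe set at 0.48. The brightest Ppargc1a probe set stood at 0.42, and all 5 probe sets of this gene lay above 0, up to 1.45 on one that read 25.9 in AL and 70.6 in CR. For the clock gene Per2 the brightest probe set stood at 0.59, and another lay below the measured range in AL, at 4.89, and read 14.7 in CR. Foxo3 stood at 0.66 on its brightest probe set, but its lowest measured probe set stood at -0.44. The liver X receptor gene Nr1h3 stood at -0.78, and the list median was 0.05. All 6 Sirt7 partners were within 2-fold, from Polr1b, a subunit of RNA polymerase I, at -0.33 to Myc at 0.39. Sirt7 itself stood at -0.53. Ubtf and Elk4 stood at 0.38 on their brightest probe sets, and the lowest measured Elk4 probe set stood at 0.04. Both ends of the range, Polr1b and Myc, come from dim probe sets. Polr1b read 9.79 in AL and 7.79 in CR, and Myc lay below the measured range in AL, at 5.94, and read 7.81 in CR.

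The 11 measured substrates of the mitochondrial sirtuins centred on a median of 0.03, all within 2-fold. Idh2, the isocitrate dehydrogenase activated by Sirt3, stood at 0.95 and Glud1, the glutamate dehydrogenase restrained by Sirt4, at -0.97, with another Glud1 probe set at -0.26. Mlycd, the malonyl-CoA decarboxylase acted on by Sirt4, stood at 0.37. Cps1, the urea cycle enzyme acted on by Sirt5, read 6185 in AL and 5997 in CR, a log2 difference of -0.04. Of 9 measured zinc-dependent histone deacetylases, the other deacetylase family, none reached 2-fold, and 1 lay above 0 and 8 below. Their median was -0.15, against -0.02 over all measured genes. They ran from -0.51 for Hdac7 and Hdac6 to 0.46 for Hdac5, although another Hdac7 probe set stood at 0.41. Hdac4, at -0.03 on its brightest probe set, reached 0.65 on another. Of all measured genes, 1.80% were 2-fold higher and 2.79% lower, so the lack of members past 2-fold is no result about either list. Whether sirtuins and these genes differ in response was not tested.

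**Figure D4:**
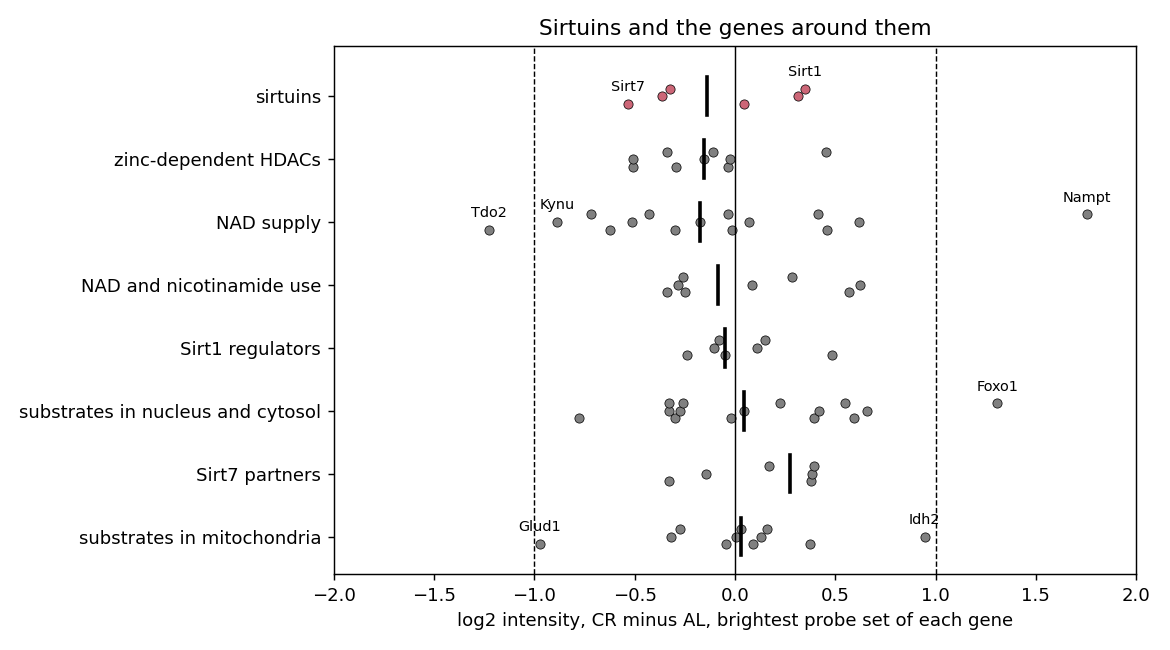
Log2 difference CR minus AL, as deposited, of the brightest probe set of each measured gene (points) in the sirtuin family (red, top) and in 7 lists of genes around it (grey), with black bars at the list medians and dashed lines at 2-fold. Only Nampt at 1.75, Foxo1 at 1.31 and Tdo2 at -1.23 lie beyond the dashed lines, and the sirtuins run from -0.53 to 0.35; scaling on the control spikes shifts all points down by 1.02.

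Cell type markers were read beside these values, because sirtuins are transcribed in many cell types and, in bulk tissue, fewer cells of a type and less RNA per cell cannot be told apart. The liver label was checked on 6 hepatocyte markers, all measured, with Alb at 12765 in AL and 11794 in CR and a list median of -0.09. The 6 measured of 7 Kupffer cell and macrophage markers all lay below 0 on their brightest probe sets, from -0.69 to -0.09 with a median of -0.61. Csf1r, the brightest of them, stood at -0.09 with another measured probe set at 0.18, and Marco stood at -0.13. The summed intensity over these 6 was 1395 in AL and 1138 in CR, and Cd68 was below the measured range in both. The 3 measured lymphocyte and neutrophil markers all lay below 0, with a summed intensity over these 3 of 111 in AL and 40.0 in CR. S100a8 and S100a9 were lower by at least 2-fold, at -2.29 and -1.75, as were 2.79% of all measured genes. Cd3e, the only measured lymphocyte marker, stood at -0.30, and Cd79a was below the measured range in both pools. Endothelial and stellate markers had medians of 0.15 and -0.14. The 3 measured cholangiocyte markers had a median of 0.29, with Epcam at -0.31. Krt7, at 0.32, lay below the measured range in AL, at 5.98, and read 7.49 in CR. Without the intensity limit, which adds Krt19 at -0.24, the cholangiocyte median was 0.03. The part of these shifts in the sirtuin differences was not tested.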

How the data were processed

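Per the labels' protocols, Trizol-extracted RNA of 3 mice per diet was pooled and 6 ug of it was made into biotin-labelled cRNA. The deposited values were intensity per probe set, processed by the authors with RMA (background correction, normalization between arrays, probe summary), per the submitters' processing notes; they are on a linear scale, and the version, later scaling and build are not given in the sources used here. RMA hides a shift shared by most genes.

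Intensities were converted to log2 and AL was subtracted from CR. Symbols came from the platform annotation of the array; 34945 probe sets had 1 symbol, 932 several and 9160 none, besides 64 controls. For 1 value per gene, the probe set brightest on average (log2) was taken. Members, lists and rules were chosen with earlier results of these data known. From each list the text names the members at least 2-fold different and the 3 of largest absolute difference, with Cps1, Polr1b, Ppargc1a, Per2, Parp3, Nadk2 and the Sirt neighbours named after their values were seen. Promoter windows (300 bases) were matched by symbol for all 7 sirtuins. Alternatives were centring, loess (span 0.4), spike scaling, a pseudocount of 8, other intensity limits (none, 75th percentile), other probe set choices and a 1.5-fold rule. The calculations were tested on simulated data. Scripts ran in Python 3.11.15 with matplotlib 3.10.9, statsmodels 0.14.6, pandas 2.3.3 and numpy 2.4.6.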

Additional observations from a re-analysis of the deposited data

How the results depend on the processing

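For the sirtuin probe sets, centring the arrays, removing a loess trend and adding a pseudocount left all 27 recomputed differences (9 probe sets, 3 settings) with their sign and moved each by less than the 0.288 SD between probe sets of a gene. A pseudocount added to both arrays cannot change a sign, and centring subtracts a constant smaller than any of these differences. Only the loess setting could have changed a sign. Scaling on the 18 hybridisation control probe sets, which themselves ran from 0.33 to 1.32, shifted the sirtuin median to -1.34 over probe sets and -1.15 over genes, put 4 sirtuin probe sets past 2-fold, and left 0 genes of the lists 2-fold higher and 40 lower (0% and 56.3% of 71, against 0.261% and 54.2% of all measured genes), as a constant shift does by construction. No sirtuin probe set passed the 1.5-fold rule without that scaling. With that rule 7 genes of the lists were higher and 6 lower, 9.86% and 8.45% of 71 against 6.76% and 9.49% of all measured genes. With the mean over the probe sets of a gene they were 1 higher and 0 lower, 1.41% and 0% against 0.870% and 1.82%. The sirtuin median over genes was -0.24 with that mean, and -0.35 over the 4 genes left when probe sets of the types _x_at, _s_at and _a_at were dropped. No array could be left out, and no paired analysis was possible because each diet has 1 array.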
